A study of Mus musculus with 21 samples.

Results

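The sites described here are the regions of the small intestinal (SI) villus that held the vitamin D receptor (VDR), open chromatin or both. They were taken from the pooled VDR ChIP-seq list of 4 SI villus samples (18078 peaks) and the pooled ATAC-seq list of 3 SI villus samples (64782 peaks), and a VDR peak was called open when it shared at least 1 bp with an ATAC-seq peak. This gave 10173 bound-and-open and 7905 bound-and-closed VDR sites and 54039 open-unbound ATAC-seq sites, with 10743 ATAC-seq peaks that lay over a VDR site. The 82860 peaks of both lists are part of the 232606 peaks in the pooled lists of the series, which also covers SI crypt and colon, and come from 7 of its 21 samples.

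All mice were C57BL/6, given as C57BL/6J in the methods, and were fed standard chow. The mice for VDR ChIP-seq were injected with 1,25(OH)2D3, the active hormone, at 10 ng/g and killed 1 h later, and no vehicle-treated ChIP-seq sample was analysed here. The mice for ATAC-seq were other animals, for which the methods describe no injection, although the text attached to the ATAC-seq labels repeats it. Ages also differ between sources: the labels give 4 to 6 weeks for ChIP-seq and 90 days for ATAC-seq, and the methods give older ages, of adult mice, for ChIP-seq. "Closed" therefore means without a peak in chromatin of other mice, and opening of chromatin after the injection cannot be told apart from binding to chromatin that stayed closed. The villi were stripped from the proximal small intestine, labelled as duodenum. The methods name 4 mice per treatment and do not say which mouse gave which sample, so a p-value measures the spread between these samples only. Immunoprecipitation used a mixture of 2 anti-VDR antibodies, in either of 2 ratios not tied to samples, and peaks were called without an input control.

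VDR is a nuclear receptor that, once 1,25(OH)2D3 is bound, pairs with the retinoid X receptor and recognises a direct repeat of 2 hexamer half-sites separated by 3 bases (DR3). Villus enterocytes are the absorptive cells of the intestine, and there VDR is best known for raising genes of calcium uptake and its own catabolic enzyme CYP24A1. ATAC-seq reads accessibility from the insertion of a transposase, so a peak marks DNA that is free of nucleosomes in part of the cells. In a whole villus preparation, a site open in few cells and a site weakly open in all of them cannot be told apart.

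Promoters of cell type markers were read for an ATAC-seq peak. All 9 enterocyte markers (Lct, Sis, Alpi, Fabp1, Fabp2, Apoa4, Apoa1, Anpep and Vil1) had an ATAC-seq peak within 1 kb of a TSS, and 6 of them also had a VDR peak there. None of the 7 immune markers did, among them Ptprc and Cd3e, and 2 of 6 stromal and vessel markers, 2 of 4 goblet, 1 of 4 Paneth and 1 of 5 enteroendocrine markers did. Promoters of 3 of 4 stem cell markers (Lgr5, Olfm4 and Smoc2) and 3 of 5 colon markers were open as well, the latter including Aqp8. No marker promoter outside the enterocyte list held a VDR peak. Some of these calls were weak: Cck and Hoxd13 had a peak in no single ATAC-seq sample, and Apoa1, Olfm4, Smoc2, Agr2 and Col1a1 in 1. The share of all genes with such a peak is not given here, so these counts do not by themselves name the cells.

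VDR samples 1 and 2 stood apart from samples 3 and 4. The letters AAGATGGCG, the core of the YY1 motif, were at the summit of 9.26% and 5.59% of their peaks, against 0.456% and 0.741% in samples 3 and 4, and in closed peaks the shares were 15.7%, 11.01%, 0.150% and 0.470%. Of the 557 pooled closed sites with these letters, 501 shared the 41 bases around them with another closed site and 235 had the very same 41 bases, a sequence with 2658 exact copies in mm9. Crypt samples 1 and 2 showed the same (9.57% and 2.88% of peaks), and no colon sample did (0.212 to 0.511%). The shared sequence is printed because it tells these peaks from the rest, with the YY1 letters in capitals.

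Repeated sequence at closed sites, mm9 chr6:128637243-128637283, plus strand: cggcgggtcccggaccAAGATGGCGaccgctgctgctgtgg

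The place of sites, the differences between open and closed peaks, the exact DR3 share and the gene lists are therefore given also for samples 3 and 4 or for the pooled VDR sites found in either, of which 2737 (72.6%) were open and 1035 (27.4%) closed. Shares of the other motifs and the comparisons with SI crypt and colon were not recomputed in this way.

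The DNA under the strongest sites is shown next, with the half-sites of the best DR3 match within 100 bases of the summit in capitals, each on the strand of the match in mm9. A match was exact where each half-site read A or G, then G, then G or T, then TCA. Sites without an exact match are shown with their fewest mismatches. The first group are exact matches at bound-and-open sites, named by the nearest gene.

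Ogdh, chr11:6192656-6192706, plus strand: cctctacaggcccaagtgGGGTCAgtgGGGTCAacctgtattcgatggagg
Trak1, chr9:121210896-121210946, plus strand: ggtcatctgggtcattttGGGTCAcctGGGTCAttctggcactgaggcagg
Gm7589, chr9:59001820-59001870, minus strand: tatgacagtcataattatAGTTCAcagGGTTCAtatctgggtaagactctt
Trim63, chr4:133864265-133864315, minus strand: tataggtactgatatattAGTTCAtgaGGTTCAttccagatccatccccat
Gmfb, chr14:47441170-47441220, plus strand: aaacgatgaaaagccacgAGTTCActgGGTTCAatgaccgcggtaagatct

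The second group are exact matches at bound-and-closed sites, which had no ATAC-seq peak in any of the 3 samples and, at Lrp5 and Bsg, a VDR peak in 3 of 4 samples.

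Ppard, chr17:28418057-28418107, plus strand: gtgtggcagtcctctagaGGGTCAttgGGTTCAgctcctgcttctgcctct
Pdgfa, chr5:139474130-139474180, plus strand: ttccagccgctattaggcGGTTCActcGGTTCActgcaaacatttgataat
Tmcc3, chr10:94007801-94007851, plus strand: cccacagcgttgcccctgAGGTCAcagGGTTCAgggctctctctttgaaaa
Lrp5, chr19:3685866-3685916, plus strand: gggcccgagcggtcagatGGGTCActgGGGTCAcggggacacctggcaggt
Bsg, chr10:79164558-79164608, plus strand: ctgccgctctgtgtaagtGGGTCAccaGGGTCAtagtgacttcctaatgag

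The third group are the 2 VDR sites of highest -log10 q and some of the sites around Cyp24a1 and Slc30a10. None of those shown had an exact match. The promoter site of Cyp24a1 is not shown, and its best match had 2 mismatches.

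Ptprj, closed, 2 mismatches, chr2:90328337-90328387, minus strand: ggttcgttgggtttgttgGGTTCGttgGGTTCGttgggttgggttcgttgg
Crat, open, 1 mismatch, chr2:30270919-30270969, plus strand: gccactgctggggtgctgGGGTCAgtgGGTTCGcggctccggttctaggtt
Cyp24a1 at 35.3 kb, closed, 1 mismatch, chr2:170287295-170287345, minus strand: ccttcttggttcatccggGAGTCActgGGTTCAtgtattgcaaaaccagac
Cyp24a1 at 42.9 kb, open, 1 mismatch, chr2:170279756-170279806, plus strand: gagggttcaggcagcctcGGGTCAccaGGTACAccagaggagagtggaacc
Cyp24a1 at 39.5 kb, open, 1 mismatch, chr2:170283178-170283228, plus strand: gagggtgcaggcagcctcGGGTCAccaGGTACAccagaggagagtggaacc
Slc30a10 at 47.9 kb, open, 1 mismatch, chr1:187326674-187326724, plus strand: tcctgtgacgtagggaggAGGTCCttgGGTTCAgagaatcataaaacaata
Slc30a10 at 31.7 kb, closed, 1 mismatch, chr1:187310424-187310474, plus strand: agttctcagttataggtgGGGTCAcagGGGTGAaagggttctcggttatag

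The open sites at 42.9 and 39.5 kb from the Cyp24a1 TSS carried nearly the same sequence, differing at 1 of the 51 bases shown. In the Ptprj window the letters GGTTCG recurred. The exact matches lay close to the VDR summit, with their centre a median of 6 bp away at the 93 open and 9 bp away at the 213 closed sites that held them.

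Bound-and-open and bound-and-closed sites differed first in where they lay. Of the open sites, 48.3% (4918) were promoters, defined as within 1 kb of the TSS of a protein-coding gene, 24.7% lay in introns and 24.0% between genes. Of the closed sites, 8.43% (666) were promoters, 46.2% lay in introns, 33.9% between genes, 6.996% in coding exons and 4.45% in 3′ UTRs. Open-unbound sites were 17.3% promoters, 37.6% introns and 42.5% intergenic, with 1.50% in coding exons and 0.960% in 3′ UTRs. Among sites found in VDR sample 3 or 4, 39.0% of open and 8.41% of closed sites were promoters, and 11.9% of closed against 3.25% of open sites lay in coding exons or 3′ UTRs.

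**Figure D1:**
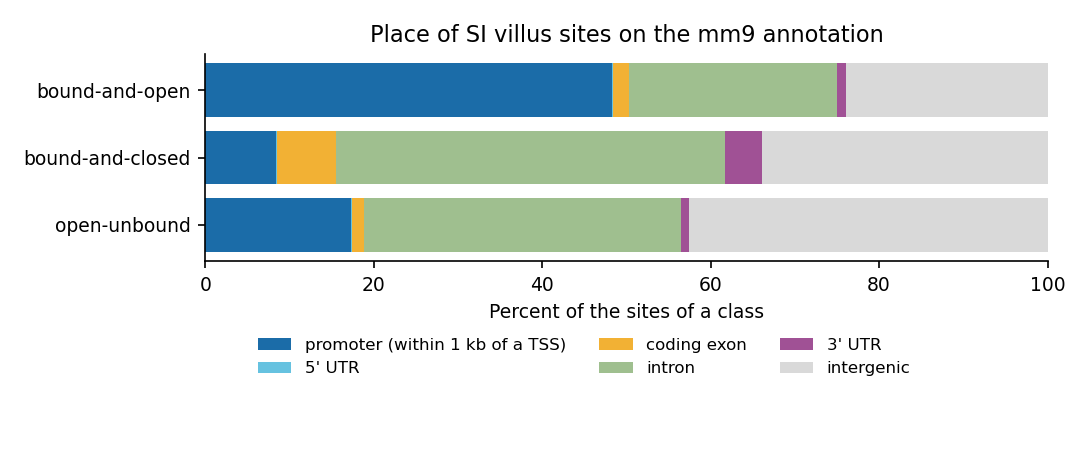
Place of the sites of each class on the mm9 annotation, as percent of the sites of a class. Promoters take 48.3% of bound-and-open, 8.43% of bound-and-closed and 17.3% of open-unbound sites, and coding exons and 3′ UTRs are widest in the closed class.

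The closed sites were the weaker peaks on average, though the peak of highest -log10 q of all was among them. The median fold enrichment, the height of the peak over the local background of the same library, was 4.06 (quartiles 3.31 and 5.60) at open and 3.12 (2.56 and 3.85) at closed sites, and the median -log10 q was 7.88 and 4.68. Open sites were also wider, with a median of 421 bp against 342 bp, and the part of width in an overlap of 1 bp was not tested. No single VDR sample had a peak at 4151 open sites (40.8%) and at 4820 closed sites (61.0%), while all 4 samples had a peak at 543 open (5.34%) and 149 closed sites (1.88%). From the strongest to the weakest 20% of VDR sites by -log10 q, the open share was 74.9%, 67.2%, 57.2%, 46.6% and 35.5%. Most closed sites were weak and seen only in the pooled reads, beside a smaller set of strong sites seen in every sample.

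The gap between a closed site and open chromatin was usually kilobases. The nearest ATAC-seq peak lay a median of 4.73 kb from the edge of a closed site, within 200 bp at 704 sites (8.91%), within 1 kb at 1819 (23.0%) and within 10 kb at 5355 (67.7%). No single ATAC-seq sample had a peak over 7526 closed sites (95.2%), and all 3 samples had a peak over 27 of them that the pooled list did not hold. At open sites the VDR and ATAC-seq summits were a median of 145 bp apart, and 3906 pairs (38.4%) were within 100 bp. Of the open sites, 5921 (58.2%) had an ATAC-seq peak in all 3 samples and 726 (7.14%) in none.

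In every VDR sample, open peaks were nearer to promoters than closed ones. Open peaks were promoters in 52.1%, 51.6%, 21.7% and 41.2% of cases in samples 1 to 4, and closed peaks in 9.79%, 16.5%, 11.7% and 14.2%. Sample 3 had the fewest open promoter peaks, and the ranges of open and closed peaks did not overlap. The difference was 28.6 ± 13.9 percentage points (SD, n = 4) and positive in 4 of 4 samples (two-sided exact permutation test by sign flips within samples, p = 0.13, the smallest that 4 samples allow, so this design cannot reach 0.05). In samples 3 and 4 alone it was 18.5 percentage points. Open peaks were also stronger, with a median fold enrichment of 6.01, 6.54, 7.21 and 5.46 against 4.78, 5.53, 6.19 and 4.36, a log2 ratio of 0.28 ± 0.06 (SD, n = 4; exact permutation p = 0.13, two-sided) and of 0.27 in samples 3 and 4 alone. Among the strongest 1000 peaks of each sample this ratio was 0.06 (exact permutation p = 0.375).

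Open peaks were richer in G and C at the summit. Mean GC in the 200 bp at the summit was 60.6%, 60.2%, 50.7% and 55.5% in open peaks of samples 1 to 4 and 57.4%, 56.9%, 47.4% and 50.6% in closed peaks. The difference was 3.64 ± 0.85 percentage points (SD, n = 4; two-sided exact permutation p = 0.13), and 4.10 in samples 3 and 4 alone. Among peaks further than 1 kb from a TSS it was -0.656 percentage points (exact permutation p = 0.5), so the direction turned when promoters were left out.

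**Figure D2:**
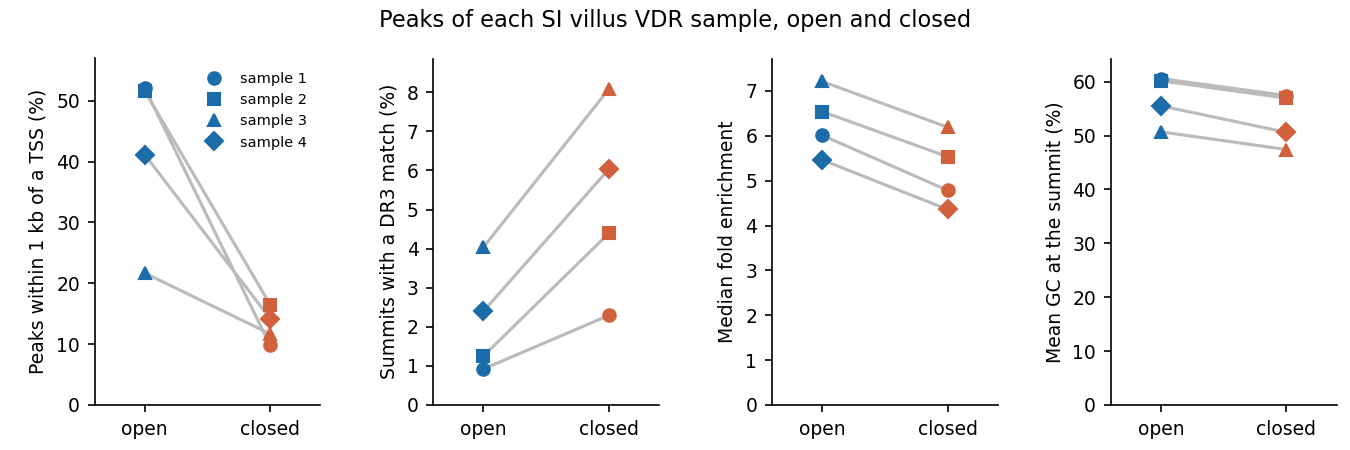
Peaks of the 4 SI villus VDR samples, open and closed, with a line joining the values of a sample: promoter share, share of summits with an exact DR3 match, median fold enrichment and mean GC. In all 4 samples promoter share, fold enrichment and GC are higher in open peaks, and the DR3 share is higher in closed peaks, reaching 8.08% in sample 3.

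An exact DR3, searched on both strands in the 200 bp at the summit, was more frequent at closed than at open sites. It was present at 213 of 7905 closed (2.69%) and 93 of 10173 open sites (0.914%), at 0.0463% of open-unbound sites, and at 0.0111% and 0.0803% of windows of the same length lying 1 kb from VDR and ATAC-seq summits. Of the 306 VDR sites with an exact DR3, 30.4% were open (95% Wilson interval 25.5 to 35.8%, counting error only), against 56.3% of all VDR sites. In single samples the share was 0.920%, 1.25%, 4.04% and 2.40% of open and 2.29%, 4.40%, 8.08% and 6.03% of closed peaks. The difference, open minus closed, was -3.05 ± 1.18 percentage points (SD, n = 4), negative in 4 of 4 samples (two-sided exact permutation test by sign flips, p = 0.13, the smallest possible), and it was -3.84 in samples 3 and 4 alone, -2.72 away from promoters and -6.36 among the strongest 1000 peaks of each sample.

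With 1 mismatch allowed this difference was smaller and did not hold in every sample. Up to 1 mismatch was then found at 7.33% of open, 9.44% of closed and 1.47% of open-unbound sites and at 1.06% of the windows 1 kb from VDR sites. In single samples the share was 9.65%, 11.3%, 22.0% and 13.4% of open and 8.33%, 14.2%, 22.9% and 19.2% of closed peaks, so that sample 1 went the other way. The mean difference was -2.08 percentage points (two-sided exact permutation test, p = 0.375). Among sites further than 1 kb from a TSS, 10.7% of open and 9.34% of closed sites matched, the opposite order. In single samples these distal shares were 13.9%, 16.3%, 22.8% and 18.2% of open and 8.09%, 14.7%, 23.4% and 20.9% of closed peaks, so that open peaks were higher in samples 1 and 2 and closed peaks in samples 3 and 4. Among the 100 strongest VDR sites, 43 of 85 open and 13 of 15 closed sites had a match with at most 1 mismatch, and among the 1000 strongest, 212 of 764 open (27.7%) and 121 of 236 closed sites (51.3%).

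The exact DR3 followed the strength of the peak within both classes. In closed sites its share was 12.2% in the strongest 20% of VDR sites, then 4.72%, 1.74%, 0.622% and 0.300%, and in open sites 2.48% in the strongest and 0.0780% in the weakest 20%. Open sites with an exact DR3 were strong and repeatable: their median -log10 q was 42.4 and 34 of 93 (36.6%) were called in all 4 samples, against 7.77 and 5.05% for open sites without it. Closed sites with an exact DR3 had a median of 17.2, and 22 of 213 (10.3%) were called in all 4 samples, against 4.57 and 1.65%. Only 18.3% of the open DR3 sites were promoters, against 48.6% of the other open sites, and the ATAC-seq peak over them was weaker, with a median -log10 q of 20.1 against 30.9.

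**Figure D3:**
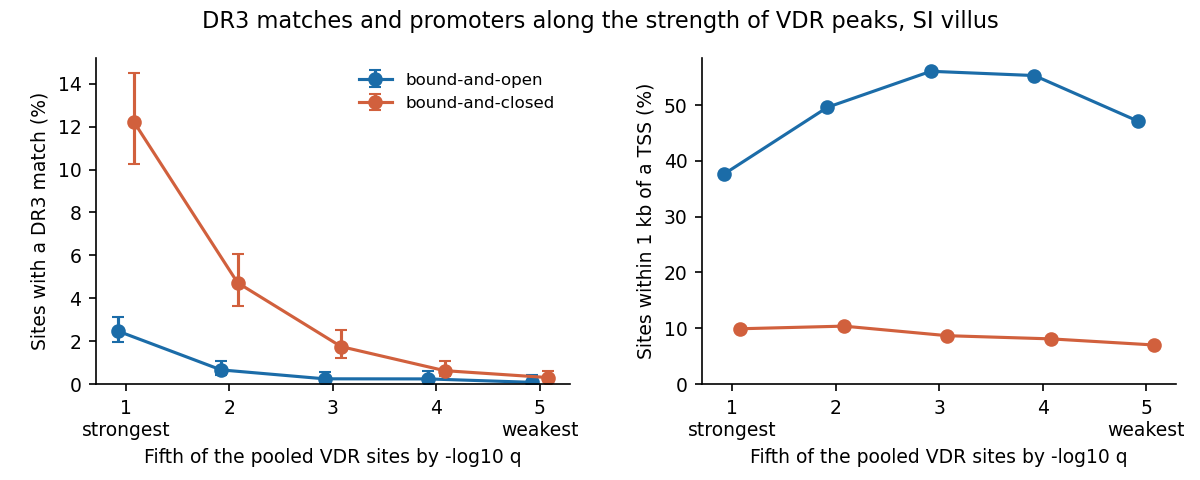
Exact DR3 matches (left, with 95% Wilson intervals) and promoters (right) in VDR sites split by -log10 q into 5 groups of equal size, strongest first. The DR3 share goes from 12.2 to 0.300% in closed and from 2.48 to 0.0780% in open sites, while promoters are 37.6 to 56.0% of open and 6.99 to 10.4% of closed sites.

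The letters of AP-1 and of enterocyte factors were read at the ATAC-seq summit of open-unbound sites and at the VDR summit of bound sites, so these shares compare different points of a site. The AP-1 letters TGANTCA were at 20.2% of open-unbound, 8.07% of bound-and-open and 4.98% of bound-and-closed summits, with 5.69% of windows 1 kb from ATAC-seq summits and 5.23% of those 1 kb from VDR summits as the share of sequence of equal length. The GATA letters AGATAAG followed the same order (6.68%, 2.65% and 2.05%, with 2.82% near ATAC-seq summits), as did the HNF4 letters CAAAGTCCA (2.33%, 1.16% and 0.455%, with 0.335%). The CDX letters TTTATGG (3.74%, 1.58% and 1.77%) and the HNF1 letters GTTAATNAT (1.53%, 0.344% and 0.329%) were above the nearby sequence (2.80% and 0.537%) at open-unbound sites and below or near it at VDR sites (2.40% and 0.492%). The CTCF motif was at 2.53%, 0.482% and 0.607%, with 0.179% near ATAC-seq summits. Read at the ATAC-seq summit, open peaks that overlapped a VDR site held the AP-1 letters in 13.1%, GATA in 4.41%, HNF4 in 1.81%, CDX in 2.58%, HNF1 in 0.707% and CTCF in 0.791% of cases. Further than 1 kb from a TSS the open peaks with and without VDR were closer, with 20.8% and 23.03% for AP-1, 7.38% and 7.68% for GATA and 1.03% and 1.75% for HNF1, and HNF4 took the opposite order (2.91% and 2.67%). Base composition differed too, and its part in these shares was not tested: mean GC was 51.4% at open-unbound, 58.9% at bound-and-open and 54.1% at bound-and-closed sites.

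The letters of factors known from promoters were counted in the same windows. The SP letters GGGGCGGGG were at 3.68% of open, 0.797% of closed and 3.47% of open-unbound sites, and the ETS letters CCGGAAGT at 2.02%, 0.291% and 1.14%. The NRF1 letters GCATGCGC were at 1.06%, 0.380% and 0.648%, and the KLF letters CCACACCC at 3.59%, 2.54% and 4.79%, with 1.74% near VDR summits. BACH1/MAFK letters TGCTGAGTC, which extend those of AP-1, were at 0.511%, 0.708% and 0.822%. Further than 1 kb from a TSS the gap between open and closed sites was smaller for SP (1.26% and 0.566%), ETS (0.609% and 0.262%) and NRF1 (0.590% and 0.359%), while KLF letters were at 4.93% and 2.54%. A match is a description of the sequence and not of the protein bound to it.

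ATAC-seq peaks under VDR were stronger and nearer to genes than the other ATAC-seq peaks. Median fold enrichment was 7.78, 6.92 and 5.82 in bound peaks of ATAC-seq samples 1 to 3 and 6.18, 5.81 and 5.08 in unbound peaks, a log2 ratio of 0.26 ± 0.07 (SD, n = 3). Promoters made up 53.3%, 53.5% and 53.7% of bound and 21.0%, 22.2% and 24.2% of unbound peaks, a difference of 31.0 ± 1.45 percentage points (SD, n = 3). Both differences were positive in 3 of 3 samples (two-sided exact permutation test by sign flips, p = 0.25, the smallest that 3 samples allow). In the pooled list, 7074 of the bound ATAC-seq peaks (65.8%) and 19134 of the unbound ones (35.4%) were called in all 3 samples. Bound peaks there were also wider, with a median of 491 bp against 281 bp. A wider peak meets an overlap of 1 bp more easily, and the part of width in these differences was not tested.

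Of the 10 strongest bound-and-open sites near genes, by -log10 q, 7 lay within 1 kb of a TSS. The top site was at the 5′ end of Crat (mm9 chr2:30270687-30271205), the carnitine acetyltransferase that buffers acetyl units in mitochondria, with a -log10 q of 1813.51 in the pooled list. Its fold enrichment was 39.99, 45.4, 25.9 and 20.1 in VDR samples 1 to 4 and 8.28, 8.51 and 4.90 in the ATAC-seq samples. Nsun5, an RNA methyltransferase, followed with 40.7, 43.6, 24.2 and 24.1, and with an ATAC-seq peak in 2 of 3 samples. VDR sample 2 was the highest at both.

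The intron of Slc37a2, a sugar phosphate transporter, held a site 8.93 kb from the TSS (chr9:37053799-37054338) with a fold enrichment of 37.5, 41.9, 20.1 and 12.6, and of 6.52, 5.65 and 6.08 in ATAC-seq. Ppox, of heme synthesis, had 33.5, 32.9, 20.3 and 13.7 at its 5′ UTR. Agpat1, an enzyme of phospholipid synthesis, had 26.3, 32.0, 20.1 and 10.3. The rest of the 10 strongest were next to Pabpc1, a poly(A)-binding protein, Gmnn, an inhibitor of replication licensing, Muted, Hnrnpf, a splicing factor, and 2200002K05Rik. All 10 had a peak in all 4 VDR samples, and 7 had an ATAC-seq peak in all 3 samples, while Pabpc1 and 2200002K05Rik had 1 each.

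The strongest bound-and-closed sites were also called in every VDR sample, and had no ATAC-seq peak in any sample. The intronic site -9.03 kb from a Ptprj TSS (chr2:90328067-90328651) had the highest -log10 q of the whole VDR list, 2324.81, and a fold enrichment of 42.6, 44.6, 27.3 and 23.2 in samples 1 to 4, with the nearest ATAC-seq peak 1.64 kb away. Ptprj is a receptor tyrosine phosphatase. Phgdh, the first enzyme of serine synthesis, had a site in its first kilobase (chr3:98143319-98143813) with 38.2, 39.8, 21.7 and 20.3, and its nearest ATAC-seq peak lay 8.24 kb away.

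Ppard, a nuclear receptor of fatty acid catabolism, had an intronic site at 8.95 kb (chr17:28417833-28418334) with 21.6, 26.6, 10.8 and 3.99 and an exact DR3. Sample 4 was the low one there. Pdgfa, a growth factor ligand, had 25.4, 24.6, 11.1 and 11.7 at a site with an exact DR3 -0.833 kb from its TSS, inside the 3′ UTR of 6330403L08Rik. Hook2 and Upk3a had sites 0.323 and 0.331 kb from the nearest ATAC-seq peak, at -5.59 and -5.03 kb from the TSS. Myo15, an unconventional myosin, Ltn1, a ubiquitin ligase of ribosome quality control, Tctn1, a protein of cilia, and Gse1 completed the 10. All 10 were called in all 4 VDR samples, and their gaps to the nearest ATAC-seq peak ran from 0.323 kb at Hook2 to 18.8 kb at Myo15.

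**Figure D4:**
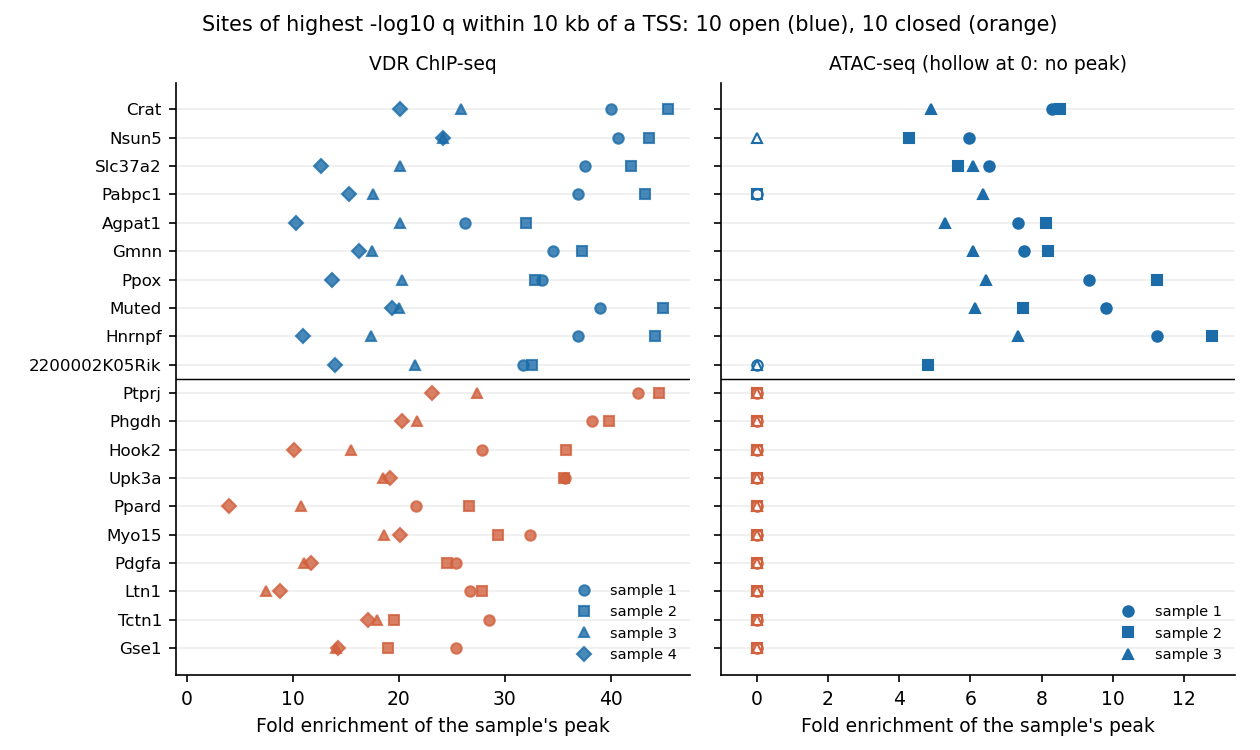
Fold enrichment of the peak of each VDR sample (left) and each ATAC-seq sample (right) at the 10 open (blue) and 10 closed (orange) sites of highest -log10 q within 10 kb of a TSS. The closed sites reach the same VDR range, up to 44.6 at Ptprj, and have no peak in any ATAC-seq sample.

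The 10 strongest open-unbound sites near genes all lay within 1 kb of a TSS and were called in all 3 ATAC-seq samples. At Megf9 the ATAC-seq fold enrichment was 13.6, 14.5 and 11.3, and VDR sample 1 alone had a peak there. At Tdrkh it was 16.4, 14.8 and 13.1, at Tfb1m, which modifies mitochondrial rRNA, 13.5, 15.0 and 12.4, and at Traf2, an adaptor of TNF receptors, 15.96, 15.1 and 11.3. D030016E14Rik, Armc1, Mettl4, Ppm1k, Lars, which charges leucine tRNA, and Ebag9 were the others, and 9 of the 10 had no peak in any VDR sample.

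Cyp24a1, the enzyme that inactivates 1,25(OH)2D3, had strong open and strong closed VDR sites. At its promoter (chr2:170322567-170323260, -log10 q of 702) the fold enrichment was 17.96, 33.7, 6.89 and 1.81 in VDR and 15.5, 12.3 and 6.60 in ATAC-seq. At 35.3 kb (chr2:170287090-170287558, -log10 q of 1605) it was 28.6, 31.8, 20.9 and 16.2 in VDR, with no ATAC-seq peak in any sample and open chromatin 1.43 kb away. VDR sample 4 was far lower at the promoter than at the distal site.

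The distal sites at 42.9 and 39.5 kb were open, with 15.6, 16.5, 10.5 and 9.71 at the first and 6.46, 7.39, 3.85 and 5.01 at the second, and ATAC-seq values of 5.93 to 9.06 across both. Over the gene itself lay 7 closed peaks, of which the peak at 13.03 kb, over the 3′ UTR, was called in 4 VDR samples (4.88, 4.77, 2.60 and 2.16). In all, 3 open and 9 closed sites were within 50 kb of the TSS.

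At the genes of the calcium channel Trpv6 and of calbindin, all VDR sites within 50 kb were closed and few samples had a peak. Trpv6, the apical calcium channel, had a site at -1.9 kb (chr6:41588181-41588436) with a peak in VDR sample 1 alone (7.66), no ATAC-seq peak in any sample and 107 kb of distance to the nearest one. S100g, which encodes calbindin D9k, had a closed site at 2.8 kb, annotated in an intron of Ctps2, with a peak in sample 4 alone (3.59), and another at -22.7 kb with peaks in samples 3 and 4 (11.1 and 15.0). Atp2b1, the basolateral calcium pump, had an open promoter site with peaks in samples 1 and 2 (13.3 and 11.5) and an open site at -34.7 kb with peaks in all 4 (15.1, 14.1, 7.08 and 11.3). Cldn15, a claudin of cation permeability, had a closed site at its promoter (9.97 and 14.8 in samples 1 and 2, none in 3 and 4), 0.038 kb from an ATAC-seq peak.

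Slc30a10, a manganese exporter, had 8 open and 8 closed sites within 50 kb. The site at 47.9 kb had similar values in all samples, with 32.8, 30.3, 27.7 and 26.0 in VDR and 10.9, 11.6 and 8.93 in ATAC-seq, and the site at 31.7 kb had 25.8, 16.9, 8.66 and 14.1 in VDR with no ATAC-seq peak. Ppard held an open site at -2.2 kb of 23.2, 21.6, 11.4 and 9.15 in VDR beside its closed intronic one, with an ATAC-seq peak in sample 1 alone (4.16). Bach1, a repressor of heme oxygenase, had an open site at -17.5 kb with an exact DR3 and peaks in VDR samples 2, 3 and 4 (11.7, 17.0 and 21.2).

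Genes were linked to a site when theirs was the nearest TSS and lay within 10 kb. Of 22367 protein-coding genes, 5613 (25.1%) had a bound-and-open site, 2123 (9.49%) a bound-and-closed site and 11749 (52.5%) an open-unbound site. Both kinds of VDR site were linked to 1040 genes, and 1083 had a closed site and no open one. Of those, 858 had an open-unbound site elsewhere within 10 kb and 225 had no ATAC-seq site. With sites of sample 3 or 4 only, 1552 genes (6.94%) had an open and 433 (1.94%) a closed site. By this rule Cyp24a1 was linked to no closed site, although closed peaks lay over the gene itself. Some of these were counted for Pfdn4, whose TSS was nearer. The gene lists are read against the percentages of all genes and were not tested.

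Genes of the brush border and microvillus were linked to VDR sites of both classes more often than all genes were. Of 25 genes for brush border digestion and uptake, 18 had an open, 20 a closed and 24 an open-unbound site, and of 20 microvillus genes 19, 15 and 19. The shares of all genes were 25.1%, 9.49% and 52.5%. Treh, trehalase, had an open site at its TSS (11.8 and 13.6 in VDR samples 1 and 2, none in 3, 3.86 in 4) and a closed site at -3.0 kb called in all 4 (15.1, 14.8, 10.3 and 7.89). Slc34a2, a phosphate transporter, had an open intronic site of 13.998, 10.03, 17.5 and 14.8, and Slc6a19, the neutral amino acid transporter, one of 10.001, 11.5, 3.61 and 4.54 at its TSS. Pls1, plastin 1 of the microvillus core, had a closed site at 1.5 kb called in all 4 samples (19.97, 15.3, 6.15 and 4.53), and Ezr, ezrin, an open one (6.19, 4.49, 3.78 and 3.61). At Vil1, villin, a site labelled closed lay 0.083 kb from a pooled ATAC-seq peak and under peaks of 2 single ATAC-seq samples. With sites of sample 3 or 4 the counts were 11 open and 4 closed of 25, and 11 and 6 of 20, beside 6.94% and 1.94% of all genes.

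Lipid, xenobiotic and metal genes were linked to open sites more often than to closed ones, as all genes were (25.1% and 9.49%). Of 27 genes of fat absorption and chylomicrons, 19 had an open and 12 a closed site, of 23 genes of fatty acid oxidation 16 and 6, of 32 genes of xenobiotic metabolism 22 and 16, of 20 genes of zinc and manganese transport 14 and 5, and of 20 genes of iron and heme 14 and 5. Open examples were Mttp, which loads chylomicrons (13.5, 13.6, 4.34 and 3.03), Heph, the ferroxidase of iron export (21.8, 15.6, 9.87 and 5.82), Fth1, ferritin heavy chain (9.49, 15.9, 4.09 and 3.77), and Slc39a4, a zinc importer (6.02, none, 4.56 and 8.04). Abcg8, a sterol exporter, had a closed site called in all 4 samples (19.6, 19.8, 11.03 and 6.19) at 2.6 kb. With sites of sample 3 or 4 the open and closed counts were 10 and 4 for fat absorption, 4 and 3 for fatty acid oxidation, 14 and 6 for xenobiotic metabolism, 10 and 0 for zinc and manganese, and 5 and 1 for iron and heme, beside 6.94% and 1.94% of all genes.

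Apoa1 and Apoa4, apolipoproteins of the chylomicron, had broad peaks over the gene at 4.82, 4.76, 4.56 and 3.88 and at 5.37, 4.21, 4.68 and 3.83, both open. Peaks of 1 kb or more made up 5.69% of open and 4.86% of closed VDR sites.

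Of 16 genes of vitamin D signalling, 9 had an open and 6 a closed site, beside 25.1% and 9.49% of all genes, and Vdr itself was linked to 2 open and 5 closed sites, the strongest closed one at a -log10 q of 7.55. Of 15 calcium absorption genes, 2 had an open and 5 a closed site. Of 20 tight junction genes, 12 had an open and 10 a closed site, among them Cldn7, open at its TSS. Of 29 intestinal transcription factors, 19 had an open and 18 a closed site, with Cdx2 open at its promoter (10.9 and 10.3 in samples 1 and 2) and Esrra closed at 0.8 kb in all 4 samples (17.2, 19.6, 6.53 and 4.19). With sites of sample 3 or 4 the open and closed counts were 4 and 0 for vitamin D signalling, 0 and 2 for calcium absorption, 4 and 3 for tight junctions, and 7 and 3 for transcription factors. The shares of all genes were then 6.94% and 1.94%.

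Genes of crypt, secretory and other cell types were linked to open-unbound sites more often than to VDR sites, as all genes were (52.5% against 25.1% open and 9.49% closed). Of 20 genes of crypt stem and proliferating cells, 18 had an open-unbound site, 1 a bound-and-open site (Aurkb) and 3 a bound-and-closed site (Msi1, Smoc2 and Sox9). The open promoters of Ccna2 (13.4, 15.2 and 12.7 in ATAC-seq), Mcm5 (12.8, 14.4 and 12.5) and Cdk1 (12.9, 9.20 and 7.19) had no VDR peak in any sample. Of 19 secretory genes, 12 had an open-unbound site, 3 had an open VDR site (Sct, Atoh1 and Cck) and 2 a closed one, and of 15 immune, stromal and vessel genes 1 and 2. Of 10 colon markers 3 and 0 had one, and of 1087 olfactory receptor genes 6 and 6. None of the stem cell, secretory, colon or immune lists had a VDR site found in sample 3 or 4. Of all genes, 6.94% had an open and 1.94% a closed site there. In lists of 10 to 20 genes, a count of 0 is near those shares.

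Among housekeeping genes, 38 of 75 ribosomal protein genes had an open and 9 a closed VDR site, and of 84 respiratory chain genes 52 had an open and 14 a closed one. Of all genes, 25.1% had an open and 9.49% a closed site, and the ribosomal closed share of 12.0% was near the latter. Cox5b, a subunit of complex IV, had an open promoter site called in all 4 samples (24.4, 28.1, 7.12 and 6.85). With sites of sample 3 or 4, the counts were 2 and 3 of the ribosomal and 12 and 4 of the respiratory genes, beside 6.94% and 1.94% of all genes. Of the 38 ribosomal genes with an open site, then, 2 had such a site in sample 3 or 4. The genes that the study names in connection with vitamin D had an open site in 22 and a closed site in 19 of 31 cases, and as a list chosen on these samples they are no independent evidence. Cyp24a1 was not among the 19, as its closed peaks were not linked to it by the nearest TSS.

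**Figure D5:**
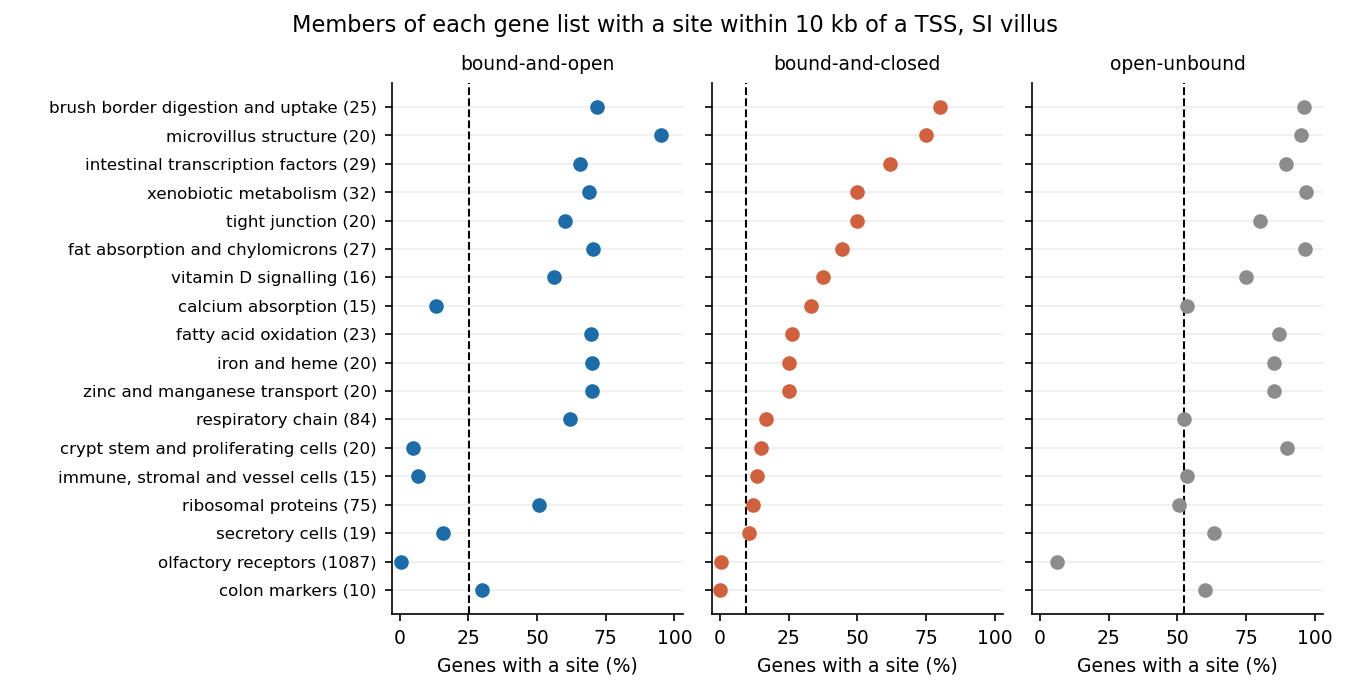
Percent of the genes of each list with a bound-and-open, bound-and-closed or open-unbound site within 10 kb of a TSS, with list size in parentheses and the share of all genes as a dashed line (25.1, 9.49 and 52.5%). Brush border, microvillus and transcription factor lists lie far right of the line for closed sites, and olfactory receptors and crypt genes lie left of it for open VDR sites.

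At some genes, several closed sites lay along the gene. Among the genes with the most closed sites were Gramd1b and Muc3, a membrane mucin, with 12 each, Slc5a1, the glucose transporter SGLT1, with 11, D5Ertd579e with 9, and Abcc2, Vil1, Plac8, Ak3 and Synpo with 8. The intronic share ran from 3 of 8 at Vil1 and Ak3 to 10 of 11 at Slc5a1, and the median -log10 q from 3.33 at Gramd1b to 9.43 at Slc5a1, beside 4.68 over all closed sites. Between 0 (at Gramd1b and Muc3, among others) and 3 (at Slc5a1, Plac8 and Vil1) of a gene's closed sites were found in 2 or more samples. By contrast the most bound-and-open sites of a gene was 7 and the most open-unbound sites 16.

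VDR peaks of SI crypt and colon covered more of the open than of the closed villus sites. Closed sites were also the weaker peaks (median -log10 q of 4.68 against 7.88), and sharing at equal strength was not compared. The pooled SI crypt VDR list covered 54.6% of bound-and-open and 34.9% of bound-and-closed villus sites, and that of colon 59.5% and 31.1%. ATAC-seq peaks of SI crypt covered 82.4% of open but 8.39% of closed sites, and those of colon 72.1% and 5.65%. The classes were set with villus ATAC-seq peaks, so chromatin open in several compartments falls into the open class by the rule. This gap in ATAC-seq coverage therefore describes the split, and nothing is concluded from it. Of open-unbound sites, 63.3% were open in SI crypt and 38.3% in colon, and 2.75% and 8.29% were under a VDR peak there. In numbers, 663 closed villus sites were open in SI crypt and 447 in colon.

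The contrast between open and closed VDR peaks was then compared with SI crypt and colon. Per sample, the log2 ratio of fold enrichment was 0.28 ± 0.06 (SD, n = 4) in SI villus, 0.20 ± 0.04 in SI crypt and 0.19 ± 0.07 in colon. The promoter difference was 28.6 ± 13.9, 26.6 ± 20.9 and 22.1 ± 4.89 percentage points, and the DR3 difference -3.05 ± 1.18, -3.93 ± 2.51 and -2.29 ± 1.63. None of the 8 comparisons of SI villus with the other compartments passed (two-sided exact permutation tests over samples, adjusted p = 0.457 to 0.886, smallest unadjusted p = 0.0857). At 4 against 4 samples, a lone comparison at the smallest possible p would not pass after adjustment over 8 tests. Likeness of the compartments was therefore not shown. For ATAC-seq, the promoter share of bound minus unbound peaks was 31.0 ± 1.45 percentage points in SI villus and 8.51 ± 1.57 in colon (SD, n = 3), a difference of 22.5 with no overlap of samples, at the smallest p that 3 against 3 samples allow (two-sided exact permutation p = 0.1, adjusted 0.4 over 4 tests). In SI crypt it was 30.8 ± 2.33, a difference of 0.2503, which was 17.3 among the strongest 1000 peaks of each sample (two-sided exact permutation test, adjusted p = 0.133).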

How the data were processed

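The deposited files hold MACS2 peak lists for VDR ChIP-seq and ATAC-seq of SI villus, SI crypt and colon. Per the file headers and the submitters' processing notes, the authors aligned reads to mm9 with Bowtie2 2.2.6 and called peaks with MACS2 2.1.0.20150731 (q value 0.05, no control). The methods give NGmerge for removing VDR ChIP-seq adapters, and the notes also name cutadapt 1.9.1. VDR peaks were called on paired fragments and ATAC-seq peaks on shifted and extended tags (shift -53 and extension 157 bp for the pooled villus list). The authors deposited for each peak its pileup signal, its fold enrichment as a ratio to the local background, and -log10 p and q values. They pooled the samples of a compartment, removed some peaks and centred the others on their summits. Pooled lists as used here lack 966 of 19044 villus VDR and 1655 of 66437 villus ATAC-seq peaks. The 6 sets of the authors' own differential comparisons hold their fold changes and p-values and were not used. No read counts are given per site, so no count test was possible.

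Depth after the duplicate filter was 4858968 to 12479695 fragments in villus VDR samples (of 10588783 to 17970894) and 22168237 to 29247820 tags in villus ATAC-seq samples. Peak counts, 10384, 5992, 1535 and 3779 in VDR samples 1 to 4, did not follow that order. Wilson intervals cover counting error only. No pair of samples had identical lists.

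Sites, promoters (within 1 kb of a TSS) and gene links (nearest TSS within 10 kb) were set on mm9 with gencode vM1 protein-coding genes, using pysam 0.24.0, scipy 1.17.1 and numpy 2.4.6 in Python 3.11.15, with plots by matplotlib 3.10.9. Motifs were searched on both strands in the 200 bp at the summit, and in windows of that length 1 kb away. Tests were two-sided exact permutation tests over samples, with Benjamini-Hochberg adjustment over 8 VDR and 4 ATAC-seq comparisons, and the scripts were tested on simulated data. Named genes are those of the 10 strongest sites of each class, those of the 5 strongest open and closed sites with an exact DR3, members of 19 gene lists (320 symbols, 1 found by an older symbol and 1 not matched) and genes the study names. Members and lists were chosen with earlier results of these data known. Alternatives were stricter peaks, other overlaps, promoters and links, and omitted samples. The peak intervals as called, samples 3 and 4 alone, peaks without YY1 letters and 1 mismatch in DR3 were added after seeing the data. Villus and crypt samples of the same number were more alike than those of different numbers, though weakly. Over 8312 shared sites their deviations correlated at 0.279, 0.100, 0.271 and 0.179 for numbers 1 to 4. The highest correlation with another number was -0.0699, 0.0751, 0.119 and 0.0788. Whether same-numbered samples came from the same mouse is not stated. Some genes that the rule names are not reported here.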

Additional observations from a re-analysis of the deposited data

Results flagged for a closer look

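In the SI villus VDR samples, the GC difference between open and closed peaks was 4.92 percentage points in sample 4, and the other 3 samples lay closely together, the lowest at 3.16, so that sample 4 stood apart from its group by its gap to the nearest sample. About 1 in 20 groups of this size shows such a gap by chance.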

How the results depend on the processing

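The differences over the 4 VDR and 3 ATAC-seq villus samples kept their sign under every alternative taken singly, except for GC. The GC difference was -0.656 among peaks further than 1 kb from a TSS. At such peaks, DR3 with at most 1 mismatch was more frequent in open ones in the pooled list and samples 1 and 2 only. None of the differences reached the threshold, which these sample numbers do not allow. The share of open VDR sites, 56.3%, was 66.3% for VDR peaks with a -log10 q of at least 5, 54.1% for such ATAC-seq peaks, 40.1% with 50% of the peak covered, 42.4% by the midpoint, 48.0% and 74.2% for ATAC-seq and VDR peaks found in at least 2 samples, and, added after seeing the data, 72.6% in VDR samples 3 and 4, 57.8% without YY1 letters and 57.6% with intervals as called. Genes with an open site were 1552 for samples 3 and 4. Genes with a closed site were 1228 for VDR peaks of at least 5, 3381 with 50% covered, 3278 by midpoint, 890 within 2 kb, 3568 within 50 kb and 433 for samples 3 and 4. Listed genes with an open site were 46.9% within 2 kb, with a closed site 15.9% within 2 kb and 50.9% within 50 kb, and with an open-unbound site 61.9% and 89.7%.

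Villus minus crypt turned sign for VDR strength (-0.0360, log2), VDR promoters (-4.98), DR3 (-0.0676) and ATAC-seq strength (-0.0366, log2) among the strongest 1000 peaks, for VDR promoters at a -log10 q of at least 5 (-2.48), and for ATAC-seq promoters with 50% covered (-0.783) and by midpoint (-0.280). Villus minus colon did so for VDR promoters among the strongest 1000 (-3.23) and for ATAC-seq strength with 50% covered (0.0728) and by midpoint (0.0465). The cause was not tested. Without single samples, villus minus crypt ran from -2.61 to 12.4 for VDR promoters (negative without villus 1 or 2 or crypt 2, 3 or 4), from -0.949 to 0.340 for GC (positive without crypt 1), from -0.0291 to 0.0527 for ATAC-seq strength and from -1.10 to 1.02 for ATAC-seq promoters (both negative without villus 1 or crypt 2). Villus colon numbers only share a number (correlations of -0.0903, -0.0238, 0.00675 and -0.218). With the replicate block no call changed (villus minus crypt VDR strength 0.0838, log2, adjusted exact permutation p = 0.4). Permutation within so few pairs of same-numbered samples cannot reach the threshold. The block could therefore not have turned any comparison into a call, and nothing is concluded from it. No single sample had a peak at 4151 open and 4820 closed VDR sites.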
